A study of Mus musculus with 3 samples.

Results

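The genes described here are 9 genes that make, carry, break down or sense retinoic acid, out of 18193 genes read by probe sets with a single gene symbol. They are Adh1, Aldh1a1, Aldh1a3, Crabp1, Crabp2, Cyp26a1, Cyp26b1, Rara and Rarg. Every probe set that the array annotation assigns to one of these symbols alone was used, which gave 12 of 34945 probe sets, with 3 for Aldh1a3, 2 for Rarg and 1 for each of the other 7 genes. The set was chosen by measured values, since it was picked because the log2 signals of Aldh1a3 and Crabp1 were lower with dimethyl sulfoxide (DMSO), so the values of that comparison are a description and support nothing by themselves.

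RNA came from MC3T3-E1 cells, a mouse preosteoblast line of calvarial origin labelled as C57BL/6 with fibroblast-like morphology, after 3 days at 37 °C. The first medium was osteogenic medium with 0.6% DMSO, a common solvent. The second was osteogenic medium without DMSO, and the third was normal medium, which was MEM α containing 10% serum from fetal cattle (FBS). Both osteogenic media added 10 mM beta-glycerophosphate, a phosphate donor, and ascorbic acid 2-phosphate at 150 µM. Per the labels, staining for calcium with alizarin red S was stronger with 0.6% DMSO. Each medium had 1 array, so there is no spread between cultures, no test and no p-value for any difference.

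Retinoic acid is made stepwise from retinol, or vitamin A. Alcohol and retinol dehydrogenases such as Adh1 oxidise retinol to retinaldehyde, and the ALDH1A enzymes Aldh1a1 and Aldh1a3 oxidise retinaldehyde to retinoic acid. Crabp1 and Crabp2 bind the acid inside the cell, Cyp26a1 and Cyp26b1 hydroxylate it for removal, and the nuclear receptors Rara and Rarg bind it and regulate genes together with RXR receptors. In the skeleton, retinoic acid is known to act on both cartilage and bone cells, and loss of Cyp26b1 in mice disturbs limb and skull formation.

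Retinoic acid receptors bind direct repeats of a short half-site, here searched on both strands as AGGTCA itself, the variant AGTTCA, the variant GGGTCA and the variant GGTTCA. The window was 300 bases, 250 before and 50 after each start annotated by RefSeq on GRCm38.p6, and 7 of the 9 genes had 12 such windows. Aldh1a3 and Crabp2 had no entry. Bases before the annotated start are shown for Crabp1, which had the largest fall of the 9 genes with DMSO, for Adh1, another lower gene, and for Cyp26a1, the gene with a matching repeat. Half-sites are in capitals. The Crabp1 stretch is chr9:54764498-54764747, the Adh1 stretch is chr3:138277335-138277584 and the Cyp26a1 stretch is chr19:37697558-37697807, each on the plus strand.
Crabp1: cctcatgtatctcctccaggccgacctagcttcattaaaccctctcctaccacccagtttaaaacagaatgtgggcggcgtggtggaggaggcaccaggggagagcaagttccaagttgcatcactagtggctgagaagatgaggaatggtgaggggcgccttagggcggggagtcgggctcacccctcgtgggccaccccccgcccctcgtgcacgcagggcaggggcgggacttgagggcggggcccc
Adh1: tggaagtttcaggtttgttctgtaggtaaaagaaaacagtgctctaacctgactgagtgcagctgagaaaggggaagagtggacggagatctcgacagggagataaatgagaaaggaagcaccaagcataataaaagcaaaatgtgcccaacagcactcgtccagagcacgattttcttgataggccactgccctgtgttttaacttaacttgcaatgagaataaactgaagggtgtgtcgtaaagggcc
Cyp26a1: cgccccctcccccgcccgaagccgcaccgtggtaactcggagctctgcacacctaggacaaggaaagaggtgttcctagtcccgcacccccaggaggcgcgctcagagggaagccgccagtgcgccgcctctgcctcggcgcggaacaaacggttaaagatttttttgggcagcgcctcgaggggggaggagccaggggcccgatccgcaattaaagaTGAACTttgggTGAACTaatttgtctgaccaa

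The Cyp26a1 window held 2 AGTTCA half-sites on the strand opposite to the gene, from 32 to 27 and from 21 to 16 bases before the annotated start. Together they read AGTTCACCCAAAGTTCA, a direct repeat with a spacer of 5 bases (DR5), the arrangement best known for retinoic acid receptors. A DR5 of these half-sites was found in 32 of 32851 promoter windows of this length in the mouse table, or 0.0974%. No DR1 or DR2 of these half-sites was in any of the 12 windows, against 0.222% and 0.268% of all windows. Single half-sites are common, being in 43.7% of all windows, and were in 5 of the 12, which belong to Aldh1a1, Cyp26a1, Rara and Rarg. The Crabp1, Adh1 and Cyp26b1 windows held none of these letters. A match is a description of the letters and not of a bound site. The GC content of the printed stretches was 63.6% for Crabp1, 44.8% for Adh1 and 61.6% for Cyp26a1.

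All values below are log2 signals of probe sets, and changes are log2 differences between 2 arrays. The medians of the deposited values were 3.54 with DMSO, 3.58 in osteogenic and 3.54 in normal medium, and the floor, the 50th percentile of all values, was 3.54. A signal under the floor is treated as the floor, which makes the change a bound. The single repeat measurement is between different probe sets of a gene on the same arrays, over 5209 genes. From these, the SD of 1 probe set's change was 0.11 for osteogenic medium with against without DMSO and 0.13 for osteogenic against normal medium. This SD, called the SD between probe sets below, leaves out the spread between cultures. It was derived from the SD of the difference between 2 probe sets of a gene, 0.15 and 0.19 in these comparisons. The 18 probe sets of the hybridisation spikes differed by medians of -0.03 and 0.10 in the same comparisons. Of the osteoblast markers, Sp7, Alpl, Col1a1, Col1a2 and Ibsp were above the floor on every array, and the adipocyte markers Adipoq, Fabp4, Pparg and Lep on none. The osteoblast markers Runx2, Spp1 and Bglap had no probe set with a single gene symbol. Of the chondrocyte markers, Col2a1, Sox9 and Col9a1 were also above the floor on every array, and Acan and Matn1 on none.

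**Figure D1:**
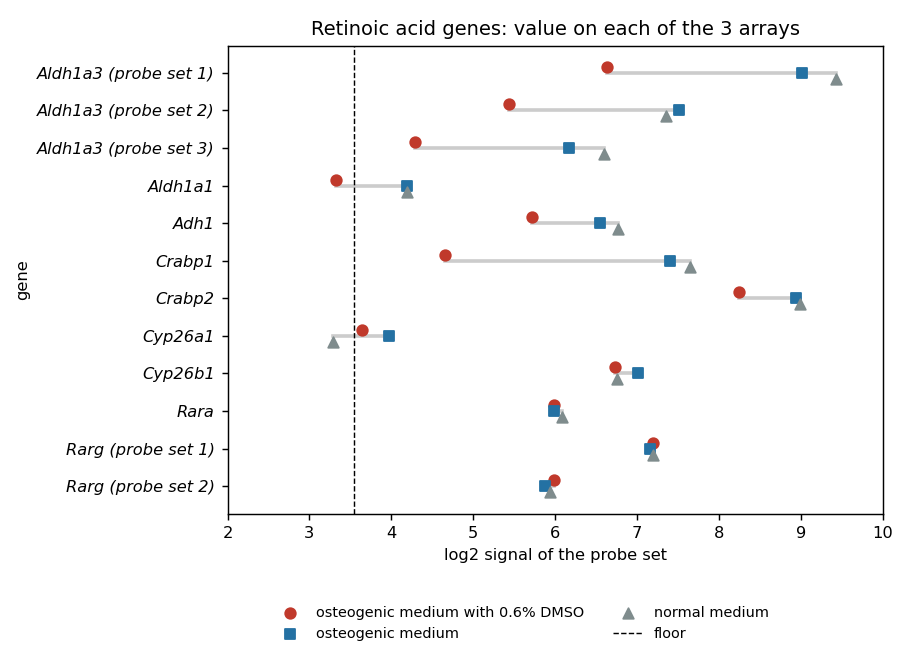
Log2 signal (horizontal axis) of the 12 probe sets of the 9 genes (vertical axis) on the 3 arrays, with the floor as a dashed line and 1 array per medium. The array with DMSO stands apart to the left for every probe set of Aldh1a3 and for Crabp1, and less so for Adh1, Crabp2 and Aldh1a1, while the 3 arrays nearly coincide for Rara and Rarg.

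The main comparison set osteogenic medium with DMSO against the same medium without it. Crabp1 fell 6.74-fold on the array with DMSO, and Aldh1a3 fell 5.20-fold, 4.21-fold and 3.69-fold on its 3 probe sets. Adh1 and Crabp2 were lower by more than 1.5-fold and less than 2-fold, and Aldh1a1 by at least 1.57-fold, a bound. Cyp26a1 and Cyp26b1 were lower by less than 1.5-fold. Rara and Rarg, on their brightest probe sets, differed by less than the SD between probe sets. In all, 2 of the 9 genes were lower by at least 2-fold and 0 higher, where 0.549% of the 11473 genes measured were lower and 0.0523% higher. At 1.5-fold the count was 5 of 9 lower, against 2.11% of all genes, and 0 of 9 higher, against 0.349%. The median of the 9 changes was -0.65 and that of all genes measured was 0.00. Since the genes were chosen with this comparison in view, nothing is read from these shares.

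Adh1 encodes the class I alcohol dehydrogenase, which can oxidise retinol. Its log2 signal was 5.72 with DMSO, 6.55 in osteogenic medium and 6.77 in normal medium. The array with DMSO was the lowest, 1.79-fold below osteogenic medium, a log2 change of -0.84. Osteogenic minus normal medium was -0.21, a smaller difference in the same direction.

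Aldh1a1 had a signal of 3.32 with DMSO, under the floor, and of 4.19 in both osteogenic and normal medium. The change with DMSO is therefore a bound, at least 1.57-fold lower, and without the floor it was -0.87. The values in the other two media were equal to every deposited digit. Aldh1a7, a close mouse paralog of Aldh1a1 whose RNA the probes may not fully separate from it, had 4.92 with DMSO, 5.83 in osteogenic medium and 5.32 in normal medium. The paralog was thus also lowest with DMSO, 1.88-fold below osteogenic medium, while it was higher in osteogenic than in normal medium by 0.51.

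Aldh1a3 was read by 3 probe sets. The brightest had 6.63 with DMSO, 9.01 in osteogenic medium and 9.43 in normal medium. The second had 5.44 with DMSO, 7.51 in osteogenic and 7.36 in normal medium, and the third had 4.29 with DMSO, 6.17 in osteogenic and 6.60 in normal medium. On each of them the array with DMSO was the lowest by far, with changes of -2.38, -2.08 and -1.88 against osteogenic medium, or 5.20-fold, 4.21-fold and 3.69-fold lower. The 3 probe sets therefore put the size of the fall at different values, spread over 0.50 on the log2 scale, and its direction at the same one. They split in direction for osteogenic minus normal medium, at -0.42, 0.15 and -0.43, so that no single direction can be given there. In bulk RNA, fewer cells that express a gene and less RNA of it per cell cannot be told apart, and this holds for every change described.

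Crabp1, a retinoic acid binding protein that is thought to buffer the acid and bring it to breakdown, had a signal of 4.65 with DMSO, 7.40 in osteogenic medium and 7.65 in normal medium. The fall with DMSO was 6.74-fold, a log2 change of -2.75, and only 3 of the 11473 genes measured had a lower change. Aldh1a3, on its brightest probe set, was next, with 4 genes below it. Osteogenic minus normal medium was -0.25 for Crabp1, so the 2 media without DMSO lay close together. Its single probe set leaves no second reading of the fall.

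Crabp2, the other binding protein, carries retinoic acid to the receptors in the nucleus and is itself a known retinoic acid target. Its signal was 8.25 with DMSO, 8.94 in osteogenic medium and 8.99 in normal medium. The array with DMSO was 1.62-fold below osteogenic medium, a change of -0.69, while osteogenic minus normal medium, -0.05, was smaller than the SD between probe sets. The binding proteins were thus both lowest with DMSO, and the change of Crabp1 was larger than that of Crabp2 by 2.06 on the log2 scale.

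Cyp26a1, which degrades retinoic acid and is among the best known genes it induces, had a signal of 3.64 with DMSO, 3.97 in osteogenic medium and 3.29 in normal medium. All 3 lay close to the floor and the value in normal medium was under it. The change with DMSO was -0.32, and osteogenic medium was at least 1.34-fold higher than normal medium. This is the gene whose promoter window held the DR5 shown above, and its folds are uncertain because the signals lie so near the floor.

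Cyp26b1, the related enzyme, had 6.73 with DMSO, 7.01 in osteogenic medium and 6.75 in normal medium. Osteogenic medium without DMSO was the highest, 0.26 above normal medium, and the change with DMSO was -0.27. Each of these exceeds the SD between probe sets, while the arrays with DMSO and in normal medium differed by -0.02. Both breakdown enzymes were therefore highest in osteogenic medium without DMSO.

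The receptors showed the smallest differences of the 9 genes with DMSO. Rara had 5.98 with DMSO, 5.98 in osteogenic medium and 6.08 in normal medium, with equal values in both osteogenic media. Rarg had 7.19 with DMSO, 7.16 in osteogenic and 7.19 in normal medium on its brighter probe set. The other had 5.98 with DMSO, 5.87 in osteogenic and 5.94 in normal medium. The changes with DMSO were 0.00 for Rara and 0.03 and 0.11 for Rarg, and those of osteogenic minus normal medium -0.10 for Rara and -0.03 and -0.07 for Rarg. Of all probe sets, 37.4% had equal values on the 3 arrays, so an exact 0 is common in this table.

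**Figure D2:**
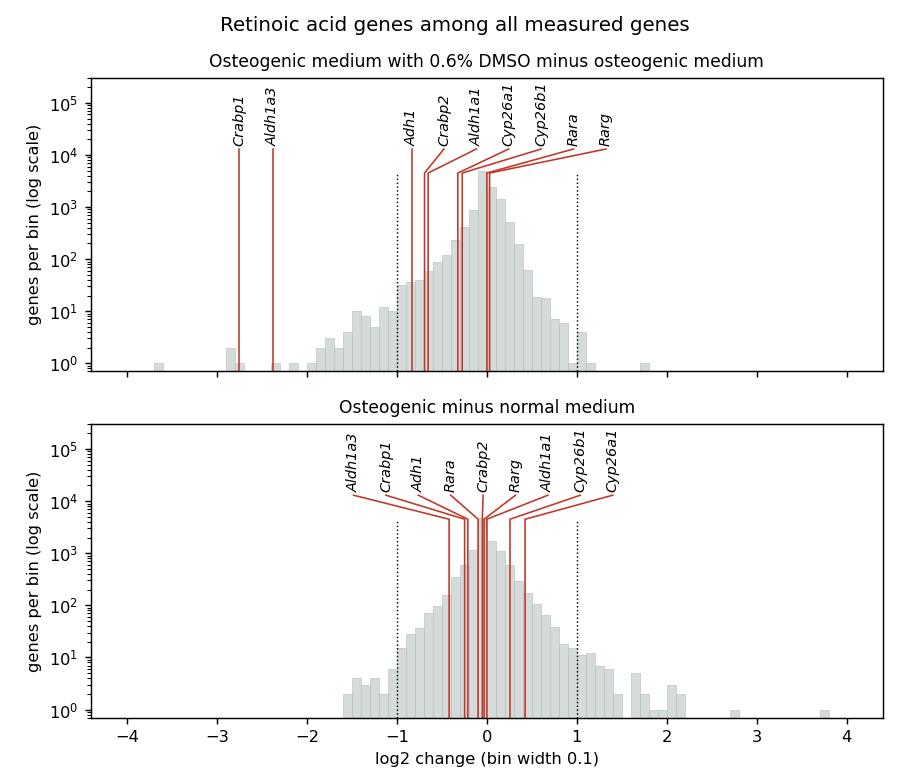
Distribution of log2 changes (horizontal axis) over all genes measured, with the number of genes per bin on a log axis, for osteogenic medium with 0.6% DMSO minus without it (top) and osteogenic minus normal medium (bottom). Red lines mark the 9 genes and dotted lines a 2-fold change; Crabp1 (-2.75) and Aldh1a3 (-2.38) lie in the far lower tail at the top, and none of the 9 passes 2-fold at the bottom.

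The comparison of osteogenic with normal medium asked what the ascorbate and phosphate donor changed without DMSO, and it shares the array of osteogenic medium with the one above. Of the 9 genes, 0 were at least 2-fold higher and 0 lower, against 0.47% higher and 0.183% lower among 11493 genes measured. At 1.5-fold it was again 0 of 9 in each direction, against 1.74% higher and 1.6% lower. On the brightest probe sets their changes ranged from -0.42 for Aldh1a3 to at least 0.43 for Cyp26a1, with a median of -0.05 beside 0.00 for all genes. The low end rests on that probe set of Aldh1a3, whose second probe set was at 0.15, and the next lowest change was that of Crabp1, -0.25. Both breakdown enzymes were above 0, Aldh1a1 was at 0, and Adh1, Crabp1, Crabp2, Rara and Rarg were below it, while Aldh1a3 was below it on 2 of 3 probe sets. A change above the bound of Cyp26a1 was found in 3.65% of genes, and this share is an upper limit because the change is at least that bound.

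Osteogenic medium with DMSO was also set against normal medium, which adds the 2 changes above and is not a separate reading of either. Crabp1 was 7.99-fold lower, and Aldh1a3 was 6.95-fold, 3.79-fold and 4.98-fold lower on its 3 probe sets. Adh1 passed 2-fold as well, 2.07-fold lower. These 3 of 9 compare with 1.33% of the 11492 genes measured, while 0 of 9 were higher, against 0.6%. At 1.5-fold, 5 of 9 were lower and 0 higher, against 4.17% and 2.58% of all genes. The array with DMSO, in view when the genes were chosen, is in this comparison too, so nothing is read from these shares. Crabp2 was at -0.74 and Aldh1a1 at least 1.57-fold lower. Cyp26b1 (-0.02), Rarg (0.00) and Rara (-0.10) were close to 0. Cyp26a1 was higher by at least 0.10, a bound, and by 0.36 without the floor.

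Other genes of the pathway were read from fixed lists, some of whose genes stand in more than 1 list. Of 35 genes of retinoid uptake, storage and oxidation, 15 were measured, and with DMSO 0 passed 2-fold in either direction, 5 were above 0, 5 below and 5 equal. Their median was 0.00, as for all genes, of which 40.3% were above 0, 30.2% below and 29.5% equal. Besides Aldh1a7 (-0.91), the largest changes were those of Cyp1b1 (-0.37), a cytochrome that can oxidise retinol, and of the reductases Dhrs4 (0.28) and Rdh13 (0.19), which act on retinaldehyde. For osteogenic minus normal medium the median was -0.07 with 0 of 15 past 2-fold, led by Aldh1a7 (0.51), the aldehyde oxidase Aox1 (-0.41), Dhrs4 (-0.37) and Cyp1b1 (-0.25). These are values of the brightest probe sets. A dimmer Dhrs4 probe set above the floor was at 0.00 in both comparisons. A dimmer one of Cyp1b1 was at -0.07 with DMSO and -0.17 for osteogenic minus normal medium. Aldh1a2, the main retinaldehyde dehydrogenase of the embryo, was under the floor on all 3 arrays at 1.95, as were the retinol acyltransferase Lrat, at 1.38, and the retinol transporter Stra6, between 3.27 and 3.32.

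Rdh10, the retinol dehydrogenase needed for embryonic retinoic acid, had 6.60 with DMSO, 6.52 in osteogenic and 6.58 in normal medium. Dhrs3, which turns retinaldehyde back to retinol and is a known retinoic acid target, had 4.97 with DMSO, 5.01 in osteogenic and 5.01 in normal medium. On these probe sets, the brightest of each gene, neither differed between any 2 arrays by more than the SD between probe sets. A dimmer Rdh10 probe set was at -0.15 for osteogenic minus normal medium, beyond that SD. These 2 genes lie outside the naming rule and were chosen after their values were seen, as were the genes under the floor.

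Of 15 nuclear receptors and cofactors, 11 were measured and 0 passed 2-fold in any comparison. Rarb, the receptor gene most used as a retinoic acid reporter, was under the floor at 2.15 on all 3 arrays. On the brightest probe sets, the list ranged with DMSO from 0.00 to 0.10 with a median of 0.04. The largest changes there were those of Ncoa1 (0.10), Ncoa3 (0.07), Crebbp (0.07) and Nrip1 (0.06), all coregulators. Osteogenic minus normal medium gave a median of -0.04, with Ncoa2 at -0.28 and Ncoa1 at -0.27, and Nrip1, Crebbp and Hdac3 at -0.07. Dimmer probe sets above the floor could differ more. A dimmer one of Ncoa2 was at 0.33 with DMSO, and a dimmer one of Crebbp at -0.40 for osteogenic minus normal medium. The RXR partner genes Rxra and Rxrb differed by at most 0.04 between any 2 arrays, and they too were named after their values were seen.

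Of 22 genes known to respond to retinoic acid in various tissues, 11 were measured. With DMSO 1 fell and 0 rose by 2-fold, 3 were above 0, 6 below and 2 equal, with a median of -0.04. Of all genes measured, 0.549% fell and 0.0523% rose by 2-fold, 40.3% were above 0, 30.2% below and 29.5% equal. The list gene that fell was Tgm2, which encodes the tissue transglutaminase, an enzyme that crosslinks proteins. Its brightest probe set had 6.71 with DMSO, 8.25 in osteogenic medium and 8.55 in normal medium, so the array with DMSO was 2.92-fold below osteogenic medium. The other 4 probe sets above the floor changed by -1.50, -1.45, -1.32 and -0.74, and the sixth was under the floor on all arrays. Several of these probe sets are of a design that can match other transcripts too.

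The other responsive genes moved less with DMSO. The homeobox gene Meis1 was higher by 0.43, and Rarres2, which encodes chemerin, and the repressor Bhlhe40 were at -0.16 and -0.15. A dimmer Rarres2 probe set, above the floor on every array, was at -0.53, so the size of its change differed between probe sets. For osteogenic minus normal medium the list had 0 of 11 past 2-fold and a median of 0.00, with Bhlhe40 at 0.69, the repressor Hic1 at -0.44, Tgm2 at -0.29 and Meis1 at -0.25. Against normal medium, the array with DMSO was 3.58-fold lower for Tgm2, the single gene of the 10 measured in that comparison that passed 2-fold. Of all genes measured, 1.33% were lower by 2-fold there.

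**Figure D3:**
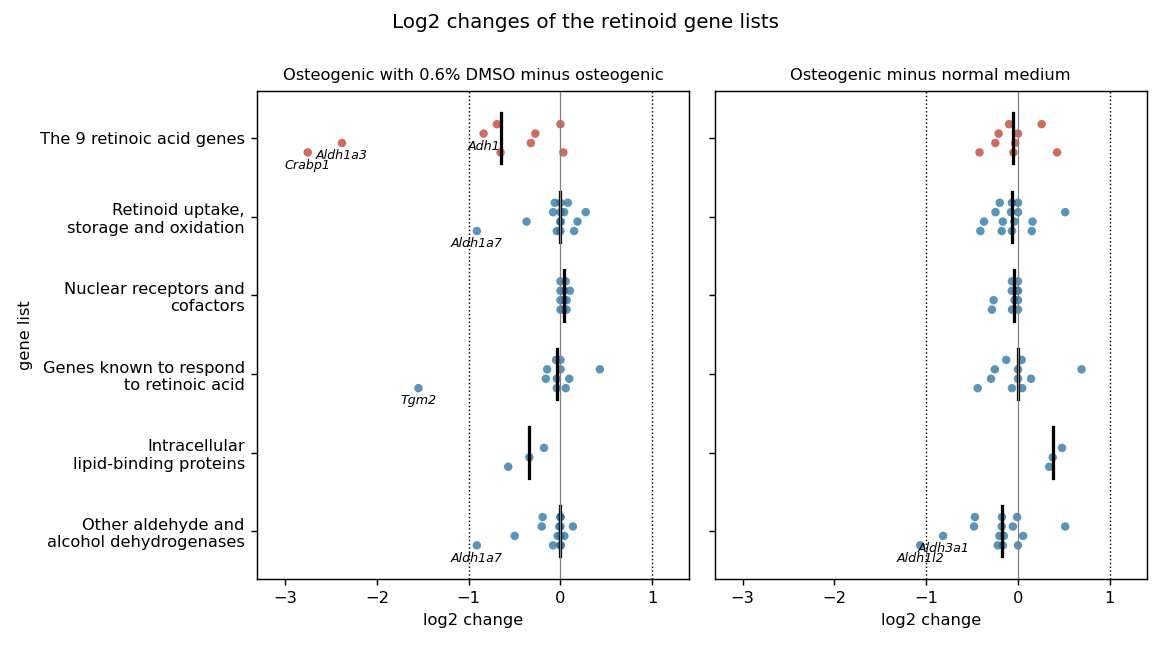
Log2 change (horizontal axis) of each measured gene of the 9 retinoic acid genes and of 5 fixed lists (vertical axis), for osteogenic medium with 0.6% DMSO minus without it (left) and osteogenic minus normal medium (right). Black bars are medians and dotted lines a 2-fold change; Crabp1, Aldh1a3 and Tgm2 pass 2-fold on the left and Aldh1l2 on the right.

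Crabp1 and Crabp2 belong to the intracellular lipid-binding proteins, and 3 of 11 other genes of that family were measured. Fabp5, which can carry retinoic acid to the receptor PPARδ, had 10.42 with DMSO, 10.99 in osteogenic medium and 10.51 in normal medium. It was highest in osteogenic medium without DMSO, with a change of -0.57 with DMSO and 0.48 for osteogenic minus normal medium. Its second probe set gave -0.51 with DMSO and 0.23 for osteogenic minus normal medium. With DMSO the fatty acid carrier Fabp3 was at -0.18 and Fabp7, another carrier, at a bound of -0.34, and for osteogenic minus normal medium they were at 0.38 and a bound of 0.34. In this family 0 of 3 passed 2-fold in either comparison. The medians were -0.34 with DMSO and 0.38 for osteogenic minus normal medium.

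Of 22 other aldehyde and alcohol dehydrogenases, 15 were measured, and with DMSO 0 passed 2-fold. The median was 0.00, with 3 above 0, 7 below and 5 equal, against 40.3%, 30.2% and 29.5% of all genes. After Aldh1a7 the largest changes were those of Aldh3a1 (-0.50), an enzyme abundant in the cornea, Aldh1l2 (-0.20), a mitochondrial folate enzyme, and Aldh6a1 (-0.19), an enzyme of valine breakdown. For osteogenic minus normal medium 12 were below 0 and 2 above, against 38.4% and 36.2% of all genes, with a median of -0.18. Of all genes, 0.183% were lower by 2-fold there. Aldh1l2 alone of the 15 passed 2-fold, with a change of -1.06. It had 8.55 with DMSO, 8.76 in osteogenic and 9.82 in normal medium, so normal medium stood apart from both osteogenic media. Aldh3a1 was at -0.82 and Aldh6a1 at -0.48. Aldh3a1 had 3.91 with DMSO, 4.41 in osteogenic and 5.23 in normal medium, and was 2.49-fold lower with DMSO than in normal medium.

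The genes nearest in pattern were found from the 3 values of each gene, centred on their own mean, as the Euclidean distance over the 3 arrays among 10839 other named genes above the floor on all of them. The gene nearest to Aldh1a3 was Crabp1, and the reverse held too, at a distance of 0.26 on the log2 scale. The next 3 were the same for both. For Aldh1a3 they were Enpep (0.34), an aminopeptidase, Id4 (0.39), an inhibitor of helix-loop-helix factors, and Cnmd (0.55), which encodes chondromodulin, followed by Apod (0.65), a lipid-binding apolipoprotein. For Crabp1 they were Enpep (0.60), Id4 (0.65) and Cnmd (0.70), followed by F13a1 (0.75), a transglutaminase. With 3 arrays such a distance mostly ranks genes by the size of their fall with DMSO. Aldh1a3 and Crabp1 were picked for that fall, so their nearness to each other supports nothing by itself.

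Enpep had 7.05 with DMSO, 8.96 in osteogenic and 9.69 in normal medium, and Id4 had 8.12 with DMSO, 9.95 in osteogenic and 10.65 in normal medium. Osteogenic minus normal medium was -0.74 for Enpep and -0.71 for Id4, larger than for the brightest probe set of Aldh1a3. Cnmd had 6.65 with DMSO, 8.77 in osteogenic and 8.68 in normal medium, and Apod had 5.18 with DMSO, 6.82 in osteogenic and 7.14 in normal medium. F13a1 had 5.51 with DMSO, 9.11 in osteogenic and 8.38 in normal medium, and so differed from Crabp1 in being higher in osteogenic than in normal medium.

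**Figure D4:**
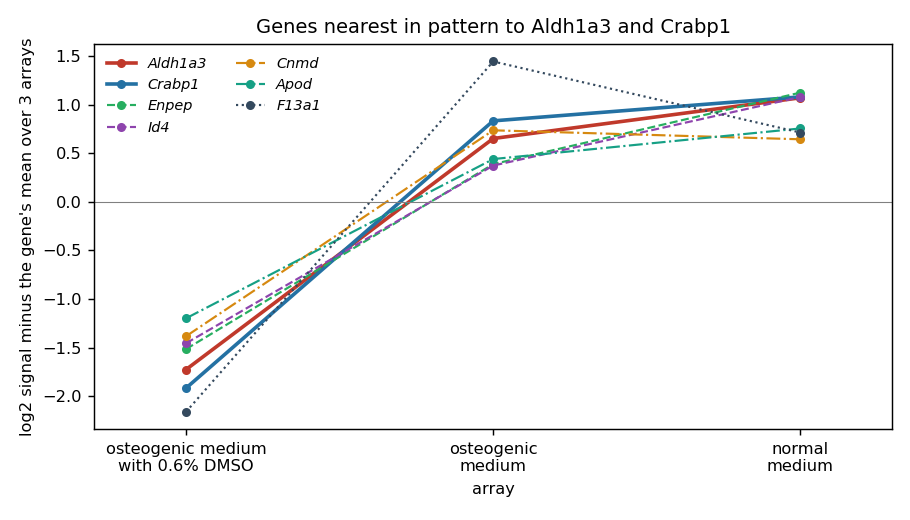
Log2 signal minus each gene's own mean over the 3 arrays (vertical axis), for Aldh1a3, Crabp1 and the 5 other genes nearest to them, with 1 point per array and lines only joining points of a gene. All 7 genes are lowest on the array with DMSO, which follows from how they were chosen, and F13a1 is higher in osteogenic than in normal medium by 0.73.

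Some markers of epithelial cells were lower in the same comparison as Aldh1a3 and Crabp1. Of 6 such markers, 4 exceeded the floor on 1 array or more. With DMSO 2 of them were lower by at least 2-fold, against 0.549% of all genes measured. Krt14 was at least 2.95-fold lower on its brightest probe set, which is of a design that can match other transcripts too. A dimmer Krt14 probe set had 3.18 with DMSO, under the floor, and 4.26 in osteogenic medium. Its change is a bound too, and without the floor it was -1.08. The remaining Krt14 probe set was under the floor throughout. Cdh1 was 2.50-fold lower, to 3.55, just above the floor. It was 0.997 higher in osteogenic than in normal medium, and its change for DMSO minus normal medium was -0.32. Krt8 was at 0.00 and Epcam at -0.07, and Krt5 and Krt18 were under the floor on all arrays. The summed linear signal of the 6 markers was 66.1 with DMSO, 108 in osteogenic and 90.7 in normal medium, and their part in the falls was not tested. The summed signal of the 6 macrophage and osteoclast markers was 666 with DMSO, 742 in osteogenic and 693 in normal medium. Ctsk alone, which encodes cathepsin K, made up 94.1% of it with DMSO, 94.7% in osteogenic and 93.9% in normal medium. Csf1r was also above the floor on every array, at 4.41 with DMSO, 4.41 in osteogenic and 4.66 in normal medium. The other markers, Ptprc, Adgre1, Cd68 and Acp5, were under the floor throughout.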

How the data were processed

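RNA of MC3T3-E1 cells was accepted at an RNA integrity number over 9.5 and hybridised to Affymetrix mouse genome arrays, per the labels' protocols, with 1 array per medium. The values that the authors deposited for 45101 probe sets span 0.652 to 13.4 and were taken as log2, while their summary, normalization and log base were not given in the sources used here. Array medians were close, as after a scaling of the arrays to each other, so a change in total RNA per cell would not be seen. The precision of every value is limited by the number of arrays.

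Probe sets with 1 symbol in the platform annotation of 2016 were used. Of these 34945, 34741 had a gene number listed in the table of GRCm38.p6, all with an equal symbol. Each gene took the values of its brightest probe set by mean, values under the 50th percentile were raised to it, and a gene was measured in a comparison when at least 1 of the 2 arrays was above that floor. Changes of at least 2-fold were counted, with no test. The genes and lists were chosen with earlier results of these data known. Named were the 9 genes, list genes past 2-fold, the 4 largest changes per list and comparison, and the 5 genes nearest to Aldh1a3 and to Crabp1. Promoter sequences are from RefSeq. A comparison of protein sequences was not made here. Alternatives were 3 normalizations, 3 floors, 2 gene summaries and a threshold of 1.5-fold. The tools were limma 3.58.1 under R 4.3.3, and matplotlib 3.10.9, pandas 2.3.3 and numpy 2.4.6 under Python 3.11.15, and the counting was tested on simulated data.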

Additional observations from a re-analysis of the deposited data

How the results depend on the processing

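Of 708 values under 9 alternatives, 676 stayed within the SD between probe sets, or within 1.5 times for counts, and none of the changes past 2-fold turned its direction. Quantile normalization, centring and cyclic loess moved none. The fall of Crabp1 with DMSO ranged from -2.76 to -2.74 and that of Aldh1a3 from -2.40 to -2.11. With the mean of all probe sets, Aldh1a3 was at -2.11 with DMSO, -0.23 for osteogenic minus normal medium and -2.34 for DMSO minus normal medium, and 1 gene in place of 6 rose with DMSO. With the floor at the 40th percentile or none, Aldh1a1 was at -0.87 in both comparisons of DMSO, and Cyp26a1 at 0.68 for osteogenic minus normal and 0.36 for DMSO minus normal medium. In the lipid-binding family 1 gene, Fabp7, then rose in osteogenic medium and 1 fell with DMSO, and with no floor the medians were 0.063 and 0.00. With the floor at the 60th percentile, 1 other dehydrogenase in place of 2 was lower with DMSO than in normal medium, and Aldh1a1 and Cyp26a1 had no value, being under that floor on all 3 arrays. At 1.5-fold, 200 genes were higher and 184 lower for osteogenic minus normal medium, 40 and 242 with DMSO, and 296 and 479 for DMSO minus normal medium. At that threshold 5 of the 9 genes were lower in each comparison of DMSO. In the lists, 1 responsive gene was higher and 2 other dehydrogenases lower in osteogenic medium, 1 gene of retinoid uptake was lower in each comparison of DMSO, and 1 other dehydrogenase was lower with DMSO. Signals near the floor, as those of Aldh1a1 and Cyp26a1, are the least certain. No paired analysis was possible because each medium had 1 array.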
